A study of Mus musculus with 18 samples.

Results

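The 7 genes Alas1, Alad, Uros, Urod, Cpox, Ppox and Fech code for enzymes of the haem synthesis pathway that every nucleated cell uses, and they were read here in the nasal mucosa of mice. They were picked by gene name from the 54532 genes of the count table, and all 7 were among the 18291 genes that passed the filter on low counts. The set was proposed because Alas1 was known to be high in the group C10, so differences that involve C10 are given for these genes as descriptions, without p-values. The 18 libraries fall into 3 groups of 6. In the group CRS, a model of chronic rhinosinusitis (persistent inflammation of the nasal and sinus lining), mice received intranasal papain, a protease from papaya, as 20 µg in 20 µL on each of days 0 to 2 and 7 to 11. The group C10 is taken to hold mice that received the same papain, because the protocol gives the compound C10 to CRS mice, at 10 mg/mL and 10 µL per side, daily over 10 days that began with papain. By the series title, the compound inhibits APE1, which repairs abasic DNA and also keeps some transcription factors reduced. What the control group CON received is not given in the labels, nor are strain, genotype, sex, age, hour of collection or whether each library came from its own mouse. P-values therefore measure the spread between these libraries, which may be technical in part.

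Haem is an iron-holding ring that cytochromes, cytochrome P450 enzymes, peroxidases and globins need for their function. ALAS1 carries out the opening, rate-limiting step in mitochondria, and in liver its gene is held down by haem itself and driven by the coactivator PGC-1α, the product of Ppargc1a. ALAD, UROS and UROD help to build the ring in the cytosol, CPOX and PPOX oxidise it in mitochondria, and FECH inserts the iron. Red cell precursors use a separate gene, Alas2, for the opening step. The olfactory part of the nasal mucosa is known for its abundant P450 enzymes, made above all in sustentacular cells, the supporting cells of the olfactory epithelium, and in the glands below it.

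The stretches of promoter that hold motifs of 2 factors linked to these genes are shown here, because the levels of such factors are compared further down. RefSeq promoter windows of GRCm38.p6, from 250 bases before to 50 bases after a start site, were matched for 6 of the 7 genes and gave 9 windows. Both strands were searched for the motif of NRF-1, a factor of nuclear genes for mitochondria (GCGCA, then any base, then GCGC), and for the E-box CACGTG, which the clock factors BMAL1 and CLOCK and other factors bind. Each line gives 30 bases, 5′ to 3′, on the minus strand, with the motif in capitals.
Alas1, chr9:106247935-106247964: gcttcggcgcGCGCGTGCGCgcggcaggcc
Alas1, chr9:106247906-106247935: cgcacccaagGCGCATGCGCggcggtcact
Uros, chr7:133709323-133709352: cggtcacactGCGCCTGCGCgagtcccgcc
Alad, chr4:62520151-62520180: gctccgaatgccCACGTGgaccccctcggg
Alad, chr4:62519920-62519949: ccgccccgccccCACGTGggcttgcgcttt
Urod, chr4:116994445-116994474: cactggatcggtCACGTGgttctcaatatg
Uros, chr7:133709516-133709545: CACGTGtgctttctcacctcgtccacgatt

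The NRF-1 motif was present in windows of 2 genes, Alas1 and Uros, and in 3 of the 9 windows, against 4.6% of 32851 mouse windows of the same length. The Alas1 windows overlap and hold the same sites, so these sites are counted in both. The motif is rich in G and C, and the Alas1 windows have a GC content of 65.3% and 73.3% against a median of 52.7% over all windows. In Alas1 it occurred at 2 places, whose opening bases lie 224 and 195 bases before the downstream start site that RefSeq lists. Counted from the upstream start site, taken as base 1, the same places open at bases 1 and 30. Both places also lie in an untranslated exon of a longer transcript, Alas1-207 of GENCODE M21. In Uros the NRF-1 motif began 47 bases before the upstream of its listed start sites. The E-box was present in windows of 3 genes, Alad, Urod and Uros, and in 4 of 9 windows, against 7.15% of all windows. It began 105 and 28 bases before 2 separate start sites of Alad, 49 bases before that of Urod and 250 bases before the upstream one of Uros. None of the 9 windows held the D-box TTATGTAA (0.938% of all windows), the ROR element TAGGTCA (2.61%) or the Maf recognition element (0.155%). These are matches of letters, and no binding was measured.

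Totals per library were 16510920 to 18433866 counts (CON), 16531779 to 17523368 (CRS) and 15883573 to 18128186 (C10). Libraries within a group differed widely: CRS 2, CRS 5 and CRS 1 lay at -80.9, -59.1 and 64.6 on the first principal component, which held 32.7% of the variance. Leaving out CRS 1 took the genes called between CRS and CON from 1 to 994. The tissue label was met by markers of olfactory neurons, sustentacular cells, nasal glands, ciliated cells and epithelium, each list present in all 18 libraries with 0 markers without counts in a group. Of 55 tested markers of 8 cell types, edgeR and limma called 0 in any of the 3 comparisons, with 11, 8 and 9 at an unadjusted p under 0.05 in CRS against CON, C10 against CRS and C10 against CON. DESeq2 called Alas2 lower and the keratins Krt8 and Krt18 higher in CRS than in CON, Krt8 lower in C10 than in CRS, and the macrophage marker Cd68 lower in C10 than in CON.

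Alas1 was the most abundant of the 7 transcripts per length and Uros the least. In CON, on the scale of deposited FPKM, Alas1 averaged 35.0 ± 3.21 (SD, n = 6, as for all group means here), Alad 33.3 ± 2.73 and Urod 30.1 ± 5.18. The ranges of these neighbours overlapped, so their order in CON is not set apart from the spread. Fech followed at 21.9 ± 1.78 FPKM, below every CON value of Urod, the highest Fech library being at 23.8 and the lowest Urod library at 25.3. Cpox at 7.71 ± 0.799, Ppox at 5.92 ± 0.336 and Uros at 3.76 ± 0.308 FPKM stood clearly lower and did not overlap one another. In C10 the mean of Alas1 was 49.4 ± 5.12 FPKM and that of Alad 40.2 ± 7.51, while Uros was at 3.79 ± 0.785.

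**Figure D1:**
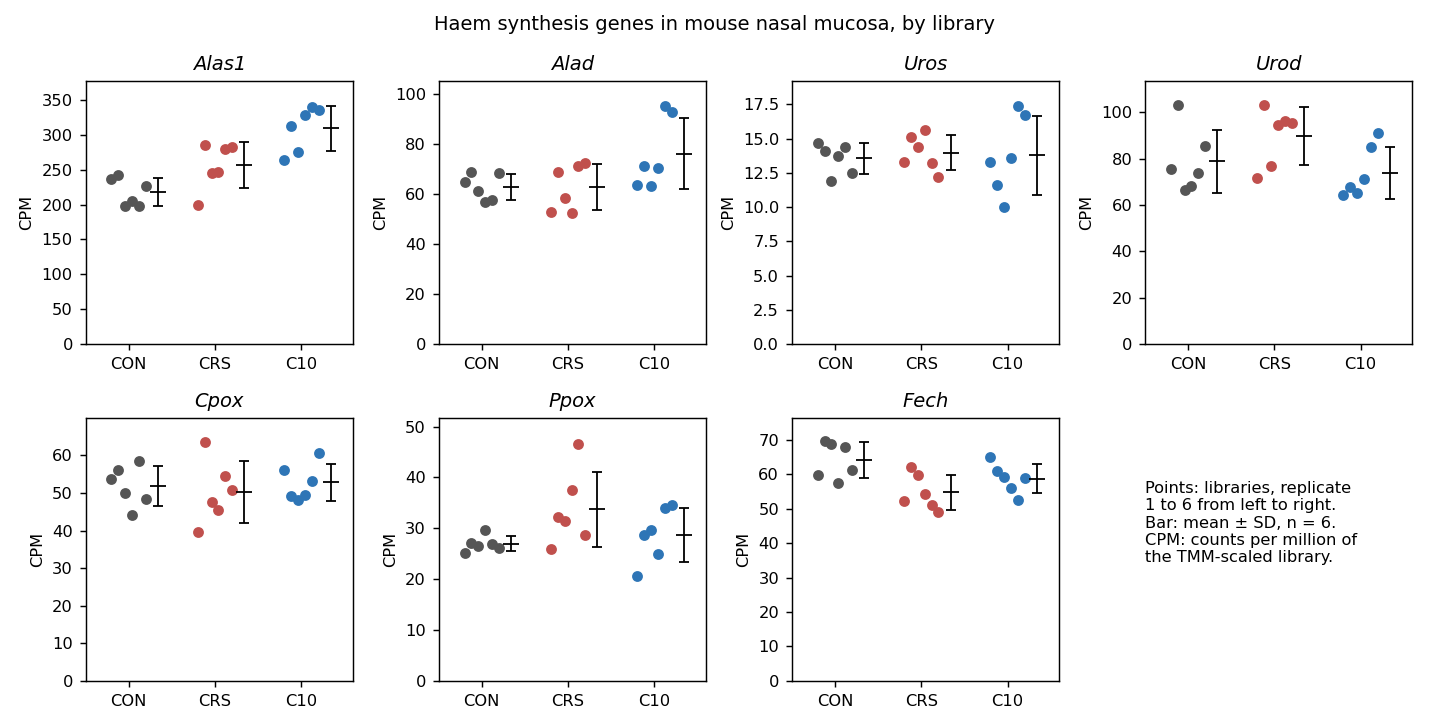
Level of each of the 7 genes in CPM, the counts scaled by the TMM library size, with 1 point per library and the mean and SD of each group of 6. For Alas1 the C10 points, from 264 to 340 CPM, all sit above the CON points, from 198 to 243, and the CRS points lie across both ranges.

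Between CRS and CON, 0 of the 7 genes passed the test (edgeR, Benjamini-Hochberg over 18291 genes), where 0.00547% of all genes tested were called. At an unadjusted p under 0.05 there were 3, Alas1, Ppox and Fech, where 14.0% of all genes tested were under that value, and DESeq2 and limma also called 0 of the 7. The median log2 fold change of the 7 was 0.04, with 4 above and 3 below 0, beside a median of 0 over all genes tested. Between C10 and CRS, 0 of 7 were called against 0.082% of all genes (0.0164% higher and 0.0656% lower), with a median of 0.07 beside 0.01. Between C10 and CON, 1 of 7 was called, the higher Alas1 that the choice of the set rests on, against 0.159% of all genes (0.0437% higher and 0.115% lower). The median there was 0.03 beside 0.01, with 5 above and 2 below 0. These comparisons share groups: CRS enters 2 of them, and CON and C10 likewise.

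**Figure D2:**
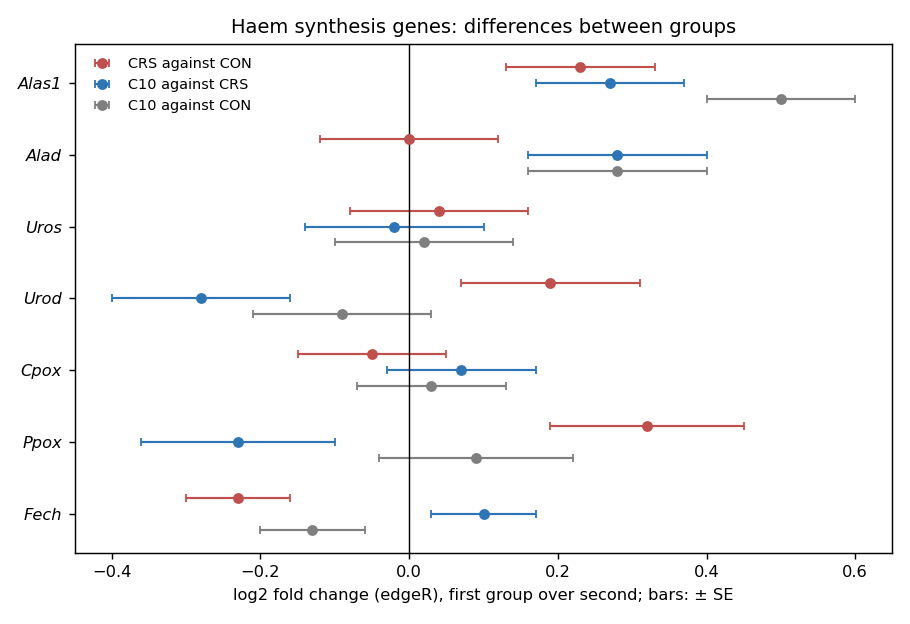
Log2 fold change of each of the 7 genes in the 3 comparisons, fitted with edgeR, with bars for the SE. Alas1 lies above 0 in all 3 comparisons, at 0.23, 0.27 and 0.50, whereas Urod and Ppox lie above 0 in CRS against CON and below 0 in C10 against CRS.

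Alas1 (ENSMUSG00000032786; mm10 chromosome 9, 106233455 to 106248654, minus strand) was lowest in CON, higher in most CRS libraries and highest in C10. The CON libraries 1 to 6 held 237, 243, 198, 205, 198 and 226 CPM. The CRS libraries held 199, 285, 245, 247, 280 and 282 CPM. The C10 libraries held 264, 313, 275, 328, 340 and 336 CPM. All 6 C10 libraries lay above all 6 CON libraries, 4 of 6 lay above the highest CRS library, and 5 of 6 CRS libraries lay above the highest CON library. CRS 1 was the exception, at a level inside the CON range.

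The difference of CRS from CON in Alas1 was a log2 fold change of 0.23 ± 0.10 (SE; 95% interval 0.03 to 0.43), or 1.17-fold, and did not pass (edgeR adjusted p = 0.295). As a description of what chose the set, Alas1 averaged 309 ± 32.6 CPM in C10, 256 ± 33.2 in CRS and 218 ± 20.2 in CON. That is 1.42-fold of CON, a log2 fold change of 0.50 ± 0.10, and 1.21-fold of CRS, 0.27 ± 0.10. The log2 fold change of C10 from CON ran from 0.47 to 0.55 as each of the 18 libraries was left out in turn, and without any of CON 1 to 6, CRS 3 or C10 2, 4, 5 or 6 the count of called genes among the 7 was 0. An antisense gene of 3.1 counts per library on average shares 465 of the 6174 exon bases of Alas1. The kit is not stated to mark the strand, so reads of that gene could not be separated from those of Alas1.

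Alad, the enzyme that joins the product of ALAS1 into the pyrrole porphobilinogen, had nearly equal means in CRS and CON and higher values in several C10 libraries. The gene is ENSMUSG00000028393, on chromosome 4 from 62509169 to 62519918, minus strand. Values of CON 1 to 6 were 64.8, 68.9, 61.1, 56.7, 57.7 and 68.5 CPM. Those of CRS were 52.8, 68.9, 58.6, 52.5, 71.2 and 72.4 CPM, of which 2 lay below the CON range and 3 above it. In C10 they were 63.8, 71.3, 63.4, 70.5, 95.3 and 92.7 CPM. C10 5 and C10 6 were the highest of all 18 libraries, 4 of 6 C10 libraries lay above the highest CON library, and the groups overlapped. The log2 fold change was 0 ± 0.12 between CRS and CON (95% interval -0.25 to 0.24; edgeR adjusted p = 0.99). It was 0.28 ± 0.12 in C10 against both CRS and CON.

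Uros, which closes the ring into uroporphyrinogen III, was the gene with the smallest differences between groups beside Cpox. Its row is ENSMUSG00000030979, on chromosome 7 from 133686243 to 133710072, minus strand. It ran from 11.9 to 14.7 CPM in CON (median 13.9), from 12.2 to 15.6 in CRS (13.8), and in C10 from 10.0 to 17.4 (13.4). The C10 libraries spread over the whole range of the other groups and beyond it at both ends. Log2 fold changes were 0.04 ± 0.12 in CRS against CON (95% interval -0.21 to 0.30; edgeR adjusted p = 0.902), -0.02 ± 0.12 in C10 against CRS and 0.02 ± 0.12 in C10 against CON. The gene overlaps Bccip on the other strand, at 704.9 counts per library, but the 2 share 0 exon bases in GENCODE M21.

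Urod, which trims the side chains of the ring in the cytosol, was the member with the clearest lower values in C10 than in CRS. It is ENSMUSG00000028684, on chromosome 4 from 116989965 to 116994413, minus strand. CON libraries held 75.6, 103, 66.4, 68.1, 73.9 and 85.5 CPM, and CRS libraries 71.5, 103, 76.9, 94.6, 96.4 and 95.5 CPM. C10 libraries held 64.3, 67.8, 65.0, 71.0, 84.9 and 90.9 CPM. Of the 6 C10 libraries, 4 lay below the lowest CRS library and 0 above the CRS median. CON 2 and CRS 2 were the highest in their groups, and C10 overlapped CON. Urod differed by 0.19 ± 0.12 between CRS and CON (95% interval -0.07 to 0.44; edgeR adjusted p = 0.501). It stood at -0.28 ± 0.12 in C10 against CRS, or 0.825-fold, and at -0.09 ± 0.12 in C10 against CON.

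Cpox, the oxygen-using oxidase that follows in mitochondria, had close medians in the groups. The gene is ENSMUSG00000022742, on chromosome 16 from 58670292 to 58717636, plus strand. It ran from 44.0 to 58.6 CPM in CON (median 51.9), from 39.5 to 63.6 in CRS (49.1), and in C10 from 48.2 to 60.6 (51.3). The CRS range held both the lowest library, CRS 1, and the highest, CRS 2. Its log2 fold changes were -0.05 ± 0.10 in CRS against CON (95% interval -0.26 to 0.17; edgeR adjusted p = 0.866), 0.07 ± 0.10 in C10 against CRS and 0.03 ± 0.10 in C10 against CON. Without CRS 1 the difference between CRS and CON was 0.01. Gpr15, at 5 counts per library, shares 204 of its exon bases on the other strand.

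Ppox, the enzyme that makes protoporphyrin IX, spread most in CRS. Its row is ENSMUSG00000062729, on chromosome 1 from 171275990 to 171281186, minus strand. CON libraries held 25.2, 27.2, 26.6, 29.6, 27.0 and 26.2 CPM. CRS libraries held 26.0, 32.3, 31.4, 37.5, 46.6 and 28.7 CPM, and 4 of 6 lay above the highest CON library, CRS 5 the farthest. C10 libraries held 20.7, 28.7, 29.7, 25.0, 34 and 34.5 CPM and overlapped both groups. CRS and CON differed by 0.32 ± 0.13 (95% interval 0.04 to 0.60), which did not pass (edgeR adjusted p = 0.295). The values for C10 were -0.23 ± 0.13 against CRS and 0.09 ± 0.13 against CON. Ppox shares 791 of its 4515 exon bases with B4galt3 on the other strand, at 461.2 counts per library, so without strand its counts are uncertain.

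Fech, the ferrochelatase that completes haem, was the member with the smallest p between CRS and CON and pointed downward. The gene is ENSMUSG00000024588, on chromosome 18 from 64456550 to 64489066, minus strand. CON libraries held 59.8, 69.7, 68.7, 57.5, 68.0 and 61.1 CPM. CRS libraries held 52.3, 62.0, 59.9, 54.3, 51.0 and 49.1 CPM, and 4 of 6 lay below the lowest CON library. C10 libraries held 65.0, 60.9, 59.3, 55.9, 52.4 and 59.0 CPM, between the other groups and overlapping both. The difference of CRS from CON was a log2 fold change of -0.23 ± 0.07 (95% interval -0.38 to -0.07; unadjusted p = 0.00646) and did not pass (edgeR adjusted p = 0.227). It ranged from -0.26 to -0.20 over 27 alternative fits and was called in 0 of them. C10 stood at 0.10 ± 0.07 against CRS and -0.13 ± 0.07 against CON.

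Alas2, the red cell form of the opening enzyme, was far less abundant than Alas1. The values of Alas2 pointed the other way in the comparisons with CON and the same way in C10 against CRS. It ran from 4.34 to 40.1 CPM in CON (median 12.6), from 1.99 to 6.89 in CRS (3.58), and in C10 from 2.70 to 10.5 (6.89). CRS stood at a log2 fold change of -1.85 ± 0.49 from CON, which did not pass (edgeR adjusted p = 0.206). It passed in DESeq2 (adjusted p = 0.0249) and, in edgeR, without CRS 1 (adjusted p = 0.0414). In C10 it was 0.66 ± 0.49 from CRS (edgeR adjusted p = 0.602) and -1.19 ± 0.48 from CON (adjusted p = 0.302). Alas2 is on the erythroid marker list, of which 11 genes were in the table. Their summed level ran from 147 to 1180 CPM in CON, from 78.3 to 329 in CRS, and in C10 from 76.5 to 364, with 0 markers at 0 in a group. The part of erythroid cells in the values of Alas2 was not tested.

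Within groups, Alas1, Alad and Urod went together with the markers of the olfactory epithelium. To see this, the group mean was taken from the log2 CPM of each gene and from the mean log2 CPM of each marker list, and the deviations of the 18 libraries were correlated, with 100000 permutations within groups. The sustentacular and olfactory neuron lists ordered the libraries of each group almost alike, so relations to both are not separate results. Of 28 relations, 7 genes against 4 lists, 7 passed for both Pearson's r and Spearman's rho after Benjamini-Hochberg adjustment. The relations of other genes to these lists were not tested, so no share over all genes stands beside this count. Whether such relations are particular to these genes is therefore not known. Macrophage, neutrophil, ciliated and epithelium markers were not correlated in this way, so relations to those cells were not tested. In each group, the library with the highest macrophage marker mean held less Alas1 than the library with the lowest. The Alas1 values were 205 against 237 CPM in CON, 199 against 285 in CRS and 275 against 328 in C10. With the 6 sustentacular markers, Alas1 had r = 0.92 (permutation p = 3e-05, adjusted 0.00042) and rho = 0.82 (p = 0.00027, adjusted 0.00252). Without CON 5 and CRS 1, the libraries farthest from the median, r was 0.90. Within CON, CRS and C10 it was 0.89, 0.98 and 0.90.

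Alad had r = 0.83 with the sustentacular markers (permutation p = 8e-05, adjusted 0.000747) and rho = 0.76 (p = 0.00037, adjusted 0.00259), and r = 0.84 without the same 2 libraries. Its r within CON, CRS and C10 was 0.90, 0.88 and 0.89. Urod had r = 0.80 (permutation p = 0.00015, adjusted 0.00105) and rho = 0.84 (p = 0.00011, adjusted 0.00252), and r = 0.80 without those 2, with 0.66, 0.91 and 0.87 within the groups. The 11 markers of olfactory neurons gave r = 0.89 for Alas1 (permutation p = 3e-05, adjusted 0.00042; rho = 0.83, p = 0.00026, adjusted 0.00252). They gave r = 0.78 for Alad (permutation p = 0.00026, adjusted 0.00146; rho = 0.77, p = 0.00049, adjusted 0.00274) and 0.70 for Urod (p = 0.00298, adjusted 0.0139; rho = 0.74, p = 0.00158, adjusted 0.00737). Without CON 5 and CRS 1 these were 0.89, 0.79 and 0.70. For Urod the relation to neuron markers was 0.44 within CON, against 0.92 in CRS and 0.83 in C10. So libraries in which markers of this epithelium were high within a group tended to be those in which these 3 enzymes were high. For Urod this was weaker within CON.

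Fech was the only one of the 7 whose relation to the erythroid markers passed. With the mean of the 9 such markers that were tested, r was 0.68 (permutation p = 0.00446, adjusted 0.0178) and rho 0.65 (p = 0.00738, adjusted 0.0295), and r was 0.60 without CON 3 and CON 4. Within CON, CRS and C10 it was 0.85, 0.38 and 0.82. With the sustentacular markers, Fech had r = -0.22 (permutation p = 0.418, adjusted 0.509) and rho = -0.23 (p = 0.389, adjusted 0.495). Alas1 had r = -0.43 with the erythroid markers (permutation p = 0.0781, adjusted 0.189; rho = -0.47, p = 0.0636, adjusted 0.189). None of the 7 had a relation to the nasal gland markers that passed, and Uros, Cpox and Ppox had none with any of the 4 lists.

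**Figure D3:**
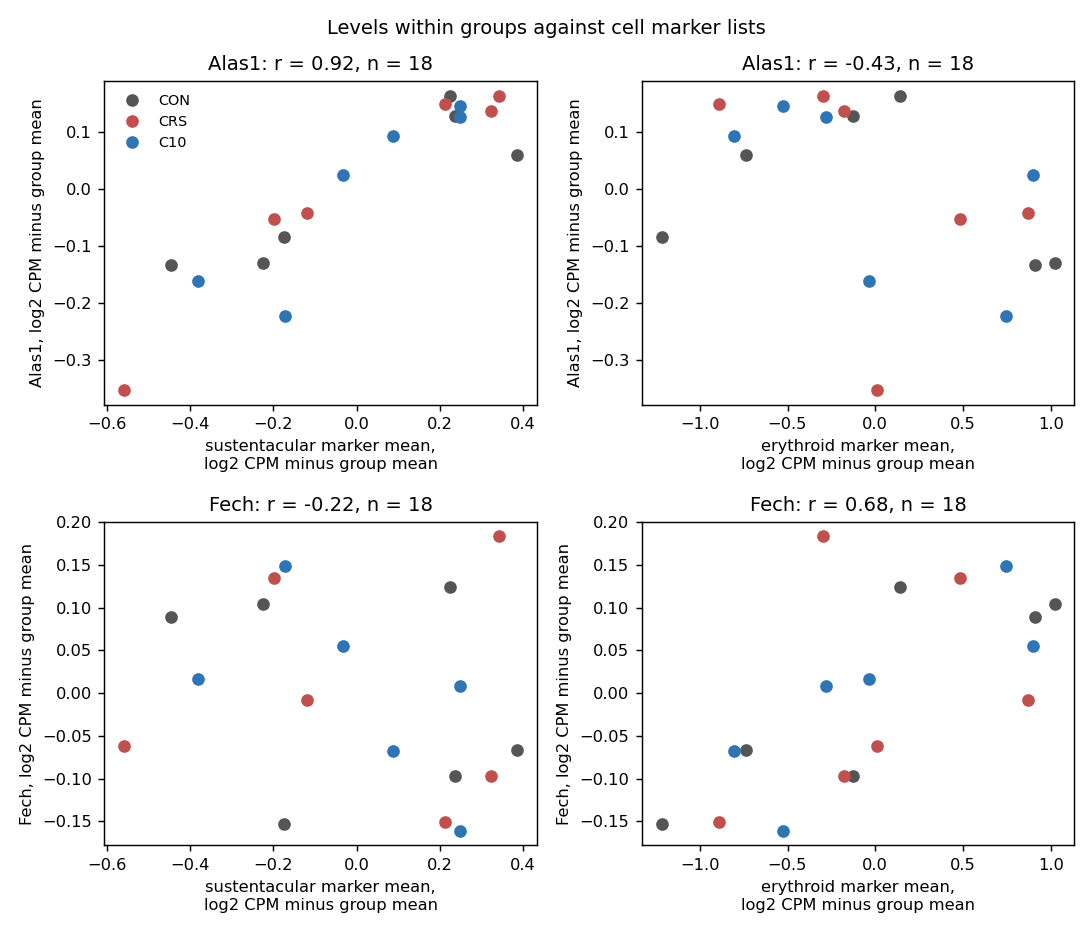
Deviation of Alas1 and Fech from their group means (log2 CPM) against that of the mean of sustentacular and of erythroid markers, with 1 point per library. Alas1 follows the sustentacular markers (r = 0.92) and Fech the erythroid markers (r = 0.68), while the other pairings have r of -0.43 and -0.22.

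The ranges of the marker sums overlapped between groups. Summed sustentacular markers ran from 9230 to 14200 CPM in CON (median 12000), from 8720 to 17100 in CRS (13900), and in C10 from 11500 to 18600 (15600), and 0 of the 6 were called in any comparison. Their median log2 fold change was 0.10 in CRS against CON, 0.17 in C10 against CRS and 0.32 in C10 against CON. In that order, 5, 4 and 6 of the 6 lay above 0. At an unadjusted p under 0.05 (edgeR) there were 1, 1 and 2, where 14.0%, 13.2% and 13.1% of all genes tested were. Summed olfactory neuron markers ran from 3660 to 9140 CPM in CON, from 4270 to 11000 in CRS, and in C10 from 5480 to 9680. Of these 11 markers, 11, 6 and 11 lay above 0 in the same order of comparisons, with medians of 0.21, 0.02 and 0.21. At an unadjusted p under 0.05 (edgeR) there were 1, 0 and 0 of them. Summed macrophage markers ran from 387 to 963 CPM in CON, from 171 to 971 in CRS, and in C10 from 255 to 544. In C10 against CON 6 of 6 macrophage markers lay below 0, with a median of -0.86 and 5 at an unadjusted p under 0.05, and edgeR gave -1.50 ± 0.39 for Cd68 (adjusted p = 0.137). Their part in the difference of Alas1 was not tested. CRS 1 held the least of the sustentacular markers and the least Alas1 of its group. Several sustentacular markers are themselves P450 genes, whose products carry haem. In bulk tissue, more cells of a type and more RNA per cell cannot be told apart.

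With the mean of the sustentacular markers as a covariate, a fit chosen after the data were seen, the log2 fold change of Alas1 was 0.15 ± 0.05 in CRS against CON (edgeR adjusted p = 0.218). It was 0.21 ± 0.05 in C10 against CRS and 0.35 ± 0.06 in C10 against CON. With the olfactory neuron markers as the covariate it was 0.43 ± 0.06 in C10 against CON. Urod in C10 against CRS was -0.36 ± 0.08 at equal sustentacular marker level.

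Of 22 genes known to regulate Alas1, or to belong to the clock and haem sensing circuits tied to it, 20 passed the filter. The list was written with earlier results of these data known. In CRS against CON, C10 against CRS and C10 against CON, 5, 8 and 9 of the 20 had an unadjusted edgeR p under 0.05. Over all genes tested, 14.0%, 13.2% and 13.1% were under that value. The median log2 fold changes of the 20 were -0.07, 0.08 and 0.02. Ppargc1a rose in CRS and was the 1 called gene of the list, and of all genes, in CRS against CON. Its levels ran from 27.5 to 42.8 CPM in CON (median 34.7), from 49.6 to 78.7 in CRS (60.9), and in C10 from 38.5 to 46.1 (39.4). The CRS libraries lay above every library of the other groups. The log2 fold change was 0.83 ± 0.12 in CRS against CON (edgeR adjusted p = 0.018) and -0.62 ± 0.12 in C10 against CRS (adjusted p = 0.0458), comparisons that share the CRS libraries, and 0.21 ± 0.12 in C10 against CON (adjusted p = 0.448). The first call was lost without CON 1, 4 or 5 or CRS 4 or 6 (edgeR adjusted p from 0.056 to 0.0921), and with a fit to the 2 groups alone (adjusted p = 0.198). The second was lost without CON 1 or 4, CRS 3 to 6 or any 1 C10 library (edgeR adjusted p from 0.0571 to 0.125) and with a fit to the 2 groups alone (0.0567). The mean of Alas1 was highest in C10 and that of Ppargc1a in CRS, and the main fit did not call Alas1 between C10 and CRS. Both genes had log2 fold changes above 0 in CRS against CON and in C10 against CON. A link between the levels of the 2 genes was not tested.

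Of the clock genes on the list, edgeR called Dbp, Nr1d2 and Arntl between C10 and CON, where 0.159% of all genes tested were called. It did not call Per2 (0.54 ± 0.11; edgeR adjusted p = 0.0735), Npas2 (-0.58 ± 0.15; 0.132), Clock (-0.28 ± 0.09; 0.209), Per1 (-0.09 ± 0.18; 0.877) or Nr1d1, of which DESeq2 called Per2, Npas2 and Nr1d1. Dbp, a clock output factor that binds the D-box, ran from 25.2 to 41.1 CPM in CON (median 28.9), from 26.2 to 61.1 in CRS (42.7), and in C10 from 53.4 to 86.7 (81.7). It rose in C10 against CON by 1.29 ± 0.18 on the log2 scale (edgeR adjusted p = 0.0108) and was called in 27 of 27 alternative fits. Against CRS the value was 0.79 ± 0.18 (edgeR adjusted p = 0.101; called in 3 of 27 alternative fits, DESeq2 among them). CRS stood 0.49 ± 0.18 from CON (edgeR adjusted p = 0.252), which passed without CRS 1 (adjusted p = 0.0401). Nr1d2, a haem-binding repressor of the clock, rose in C10 against CON by 0.52 ± 0.10 (edgeR adjusted p = 0.0327), from 76.1 ± 6.66 to 110 ± 13.3 CPM. That call was lost without any 1 of CON 2 to 6 or of the C10 libraries (edgeR adjusted p from 0.0507 to 0.134), with no filter on low counts (0.0596) and with the sustentacular covariate (0.0584). Between CRS and CON Nr1d2 stood at 0.28 ± 0.10 (edgeR adjusted p = 0.244), which passed without CRS 1 (adjusted p = 0.0434). Arntl, which codes for the clock activator BMAL1, fell by 0.76 ± 0.14 (edgeR adjusted p = 0.0327), from 24.4 ± 2.88 to 14.4 ± 3.49 CPM. Its call was lost without CON 2 to 5 or C10 2, 4, 5 or 6 (edgeR adjusted p from 0.0823 to 0.112). The hour of collection is not given, and its part in these differences and in that of Alas1 was not tested.

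**Figure D4:**
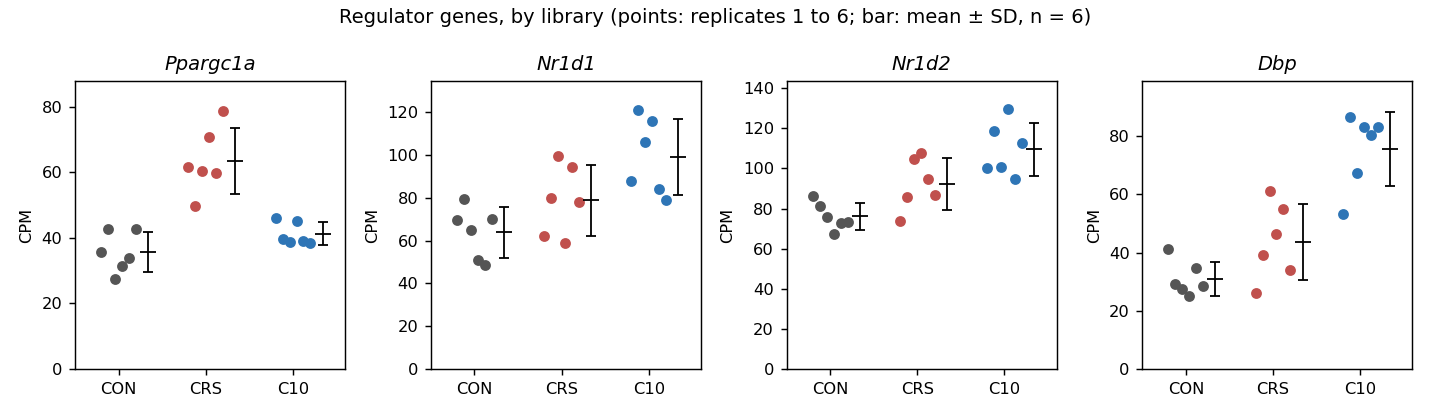
Levels of Ppargc1a, Nr1d1, Nr1d2 and Dbp in CPM, with 1 point per library and the mean and SD of each group of 6. Ppargc1a is highest in CRS, from 49.6 to 78.7 CPM, whereas Dbp is highest in C10, from 53.4 to 86.7 CPM.

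Nr1d1, the close relative of Nr1d2 whose product also binds haem, had values in the same order as Alas1, with means of 63.9 ± 12.0 CPM in CON, 78.7 ± 16.6 in CRS and 98.9 ± 17.7 in C10. It was not called in C10 against CON (log2 fold change 0.63 ± 0.15; edgeR adjusted p = 0.114) but was in DESeq2. Nrf1, which codes for the factor NRF-1 whose motif lies in the Alas1 and Uros windows, had means of 37.1, 35.4 and 39.3 CPM in CON, CRS and C10. Its log2 fold changes were -0.07 ± 0.08 (CRS against CON; edgeR adjusted p = 0.718), 0.15 ± 0.08 (C10 against CRS; 0.408) and 0.08 ± 0.08 (C10 against CON; 0.663). Bach1, a repressor that haem displaces from DNA, had means of 54.2, 52.0 and 45.7 CPM, and its log2 fold change of -0.06 ± 0.16 between CRS and CON (edgeR adjusted p = 0.891) turned to 0.12 without CRS 2 and CRS 5.

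Genes that carry, use or break down haem showed no calls in edgeR. Of 16 tested genes of mitochondrial support for haem synthesis, 0 were called in any comparison, with 2, 5 and 0 at an unadjusted p under 0.05 in CRS against CON, C10 against CRS and C10 against CON. Over all genes tested, 14.0%, 13.2% and 13.1% were under that value, and the counts of the lists that follow are in the same order. DESeq2 and limma also called 0 of these. Their median log2 fold changes were 0.09, -0.11 and -0.06, with 12 of 16 above 0 in the opening comparison and 12 of 16 below 0 in each of the others. Slc25a38, the carrier that brings glycine into mitochondria for ALAS, stood at 0.15 ± 0.07 in CRS against CON (edgeR adjusted p = 0.32) and -0.22 ± 0.07 in C10 against CRS (adjusted p = 0.178). Slc25a39, a mitochondrial glutathione carrier, stood at -0.25 ± 0.08 in C10 against CRS (edgeR adjusted p = 0.191).

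Of 12 tested genes of haem breakdown and transport, edgeR called 0, with 3, 0 and 3 at an unadjusted p under 0.05, and limma 0. DESeq2 called Cd163, the scavenger receptor for haemoglobin, lower in CRS than in CON, where edgeR gave -1.11 ± 0.31 (adjusted p = 0.21). Hmox1, the inducible haem oxygenase, averaged 34.5 ± 12.6 CPM in CON, 30.7 ± 6.91 in CRS and 30.5 ± 5.46 in C10. Its log2 fold changes were -0.17 ± 0.19 in CRS against CON (edgeR adjusted p = 0.709), -0.01 ± 0.19 in C10 against CRS (adjusted p = 0.988) and -0.18 ± 0.19 in C10 against CON (adjusted p = 0.714).

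The P450 system, the main known user of haem in this tissue, showed 0 calls among 20 tested genes in edgeR, DESeq2 and limma, with 0, 0 and 3 at an unadjusted p under 0.05. Its median log2 fold changes were 0.04, 0.04 and 0.05. The values of smallest p in C10 against CON were those of Cyp3a13 (0.51 ± 0.21; edgeR adjusted p = 0.309) and of Cyb5a, the electron donor cytochrome b5 (0.34 ± 0.16; adjusted p = 0.357). The third gene at an unadjusted p under 0.05 there was Cyp2a5, which is also on the sustentacular list, at 6880 ± 1440 CPM in CON and 9320 ± 2170 in C10 (0.44 ± 0.20; edgeR adjusted p = 0.359).

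Of 20 other tested genes for haem proteins, edgeR called 0, with 6, 5 and 4 at an unadjusted p under 0.05, and their medians were -0.21, -0.07 and -0.26. DESeq2 called 1 in each comparison, all lower: Ptgs2, a prostaglandin synthase (edgeR -1.91 ± 0.50, adjusted p = 0.206, CRS against CON), Cyc1, cytochrome c1 (-0.22 ± 0.06, adjusted p = 0.146, C10 against CRS), and Duox1, a peroxide-making oxidase (-0.87 ± 0.23, adjusted p = 0.138, C10 against CON). Among 13 genes of iron handling edgeR called 0, with 2, 3 and 4 at an unadjusted p under 0.05, and the medians were -0.08, -0.09 and -0.18. DESeq2 called Ftl1, a ferritin chain, lower in C10 than in CRS, where edgeR gave -0.42 ± 0.12 (adjusted p = 0.155). It also called Tfrc, the transferrin receptor through which cells take up iron, lower in C10 than in CON, where edgeR gave -0.34 ± 0.08 (adjusted p = 0.119). Limma called 0 in both lists.

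The genes whose levels were most like those of Alas1 were sought by Pearson's r of log2 CPM over the 18 libraries, among 14280 genes averaging 1 CPM or more. They were Neurod1 (r = 0.92), Ppp3cb (0.92), Fut1 (0.92), Ly6h (0.91) and Abcd2 (0.91). With the group means taken out, r was 0.77, 0.89, 0.85, 0.79 and 0.88, values that the choice of these genes over the same libraries in part fixes. Neurod1, a factor of neurons in development, averaged 1.86 ± 0.504 CPM in CON, 3.08 ± 1.26 in CRS and 6.47 ± 2.40 in C10. Ppp3cb, a catalytic subunit of calcineurin, averaged 89.7, 96.6 and 105 CPM, and Abcd2, a peroxisomal fatty acid carrier, 38.5, 47.4 and 58.3 CPM. Fut1, a fucosyltransferase, averaged 4.23, 5.67 and 6.73 CPM, and Ly6h 2.91, 4.15 and 8.30 CPM. As these 5 were picked for their likeness to Alas1, their differences between groups are given as levels only.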

How the data were processed

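Poly(A)-selected RNA of mouse nasal mucosa was sequenced in 18 libraries, per the labels' protocols. The deposited table holds raw read counts per gene, made by the authors on mm10, per the submitters' processing notes; no source used here names the aligner or counter. The deposited FPKM, which the authors derived from these counts (implied library sizes 0.877 to 1.08 times the column totals), served for levels between genes and for limma on log2(FPKM + 1). Of 54532 genes, 18291 passed filterByExpr. Quasi-likelihood tests of edgeR 4.0.16 (R 4.3.3) used TMM factors and all 18 libraries; two-sided p-values were Benjamini-Hochberg adjusted over all genes and called under 0.05. The coefficient of variation was 0.264. The floor, 3 counts, was 0.163 to 0.193 CPM (counting error alone). No library repeated another: chi-square over its degrees of freedom was at least 14.6 in all 153 pairs. Log2 CPM had a prior count of 2. Fits were tested on simulated data.

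The members, lists and tests were chosen with earlier results of these data known. Named were all 7 genes, fixed regulators, from each list the called genes (at most 4) or else up to 2 of smallest p per comparison, and the 5 genes most correlated with Alas1. Cyp2a5, Krt8, Krt18, Cd68, Per1, Per2, Npas2 and Clock were named after their values were seen. Alternatives were RLE factors, other filters, a replicate block, a marker covariate, only 2 groups, DESeq2 1.42.0, limma 3.58.1 and leaving out each library. Genome sequences are RefSeq's, GRCm38.p6.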

Additional observations from a re-analysis of the deposited data

How the results depend on the processing

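Of 27 alternative fits, 25 were planned and 2 (without CRS 2 and CRS 5 together, and with the sustentacular marker covariate) were chosen after seeing the data. Alas1 kept its direction in all 27 in each comparison: 0.15 to 0.29 in CRS against CON, 0.21 to 0.33 in C10 against CRS and 0.35 to 0.55 in C10 against CON (log2). The fits reuse the same libraries and the set was chosen for high Alas1 in C10. Its direction in the comparisons with C10 was thus set in part by that choice. In C10 against CON, Alas1 was called in 14 of the 27. The number of the 7 genes called in CRS against CON was 0 in all 27. In C10 against CRS it was 1 with the olfactory neuron covariate and 2 with the sustentacular covariate. In C10 against CON it was 0 with no filter and 0 with the replicate block, and 0 to 1 with a library left out. Genes called among all tested in CRS against CON (1) became 178 in DESeq2, 2 in limma, 2 with the olfactory neuron covariate, 0 with only the 2 groups, 0 with the block and 0 to 994 with a library left out (994 without CRS 1). In C10 against CRS (15) they became 351, 23, 674 and 9, with 397 under the sustentacular covariate, 100 without CRS 2 and CRS 5 and 7 to 81 with a library left out (7 without C10 3, 81 without CRS 2). In C10 against CON (29) they became 309 in DESeq2, 317 with the olfactory neuron covariate, 161 with only the 2 groups, 17 with no filter, 12 with the block, 53 with the sustentacular covariate, 74 without CRS 2 and CRS 5 and 3 to 110 with a library left out (3 without C10 4, 110 without CRS 1). These gaps limit how firmly a call or its absence can be read; the cause was not tested.

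Several values near 0 changed sign. Among the 7 genes, Uros ran from -0.11 to 0.05 in C10 against CRS and from -0.07 to 0.10 in C10 against CON, Cpox from -0.07 to 0.06 in C10 against CON, and Alad from -0.10 to 0.04 in CRS against CON. Bach1 in CRS against CON became 0.01 with the olfactory neuron covariate, 0.04 with the sustentacular covariate, 0.12 without CRS 2 and CRS 5 and -0.21 to 0.03 with a library left out. Cpox there ran from -0.12 to 0.01 with a library left out. With a library left out, Hmox1 ran from -0.30 to 0.05 in CRS against CON and from -0.11 to 0.12 in C10 against CRS. In C10 against CON it then ran from -0.28 to 0.04. With the covariates it was 0.02 and 0.12 in C10 against CRS, and with the sustentacular one 0.06 in C10 against CON. Over all 27 fits the range of Hmox1 in C10 against CRS was -0.13 to 0.12. The labels do not say whether the replicate numbers pair the libraries, and the correlation of deviations could not settle it. Over 18 same-numbered pairs it ran from -0.57 to 0.52, with 8 of 18 above 0.1. Of the 18 libraries, 5 correlated best with their own number. The block also ended the calls of Ppargc1a in both comparisons and of Nr1d2 and Arntl in C10 against CON.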
